A study of Homo sapiens with 7 samples.

Results

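Of the 19978 genes in the deposited table, 10 encode the HSP90 chaperones of the cytosol, the mitochondrial chaperonin, small heat shock proteins with their co-chaperone, and the transcription factors of the heat shock response. They are given by a list of names: HSP90AA1, HSP90AB1, HSPD1, HSPE1, HSPB1, HSPB8, CRYAB, BAG3, HSF1 and HSF2. All 10 were among the 14863 genes that passed the expression filter. In acidosis 8 of the 10 rose and 0 fell, against 32.5% and 34.2% of all genes tested. The log2 fold changes of these 8 ran from 0.89 for HSP90AA1 to 6.91 for CRYAB. The chaperonin genes HSPD1 and HSPE1 did not pass the test. With SRPIN340 only HSPB8 passed in edgeR, the main test, at a log2 fold change of 0.86, while 2.3% of all genes passed.

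Chaperones bind proteins that are unfolded or not yet folded and keep them from aggregating. HSP90 works late in folding, on kinases and steroid receptors among others, and the HSP60 chaperonin with its HSP10 lid encloses proteins that have entered mitochondria. Small heat shock proteins hold unfolded proteins without using ATP. In the heat shock response HSF1 forms trimers, binds inverted repeats of the letters GAA, called heat shock elements, and raises the transcription of chaperone genes.

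The cells were HEK-293, an established human embryonic kidney line, and RNA was sequenced from 7 samples after 48 h in DMEM medium. The control (2 samples) was kept at pH 7.4 with the vehicle DMSO, acidosis (3 samples) at pH 6.6, also with DMSO, while 2 further samples at pH 7.4 formed the SRPIN340 group, given 10 µM of this inhibitor of SR protein kinases, which phosphorylate splicing factors. By the study's methods DMSO was in all 3 groups. No sample combined the inhibitor with acid medium, and all came from a single cell line. The study's methods name biological repeats, each sequenced in replicates, and the table has 1 column per sample.

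The values are estimated counts per gene, with totals from 13615944 to 24110439 per sample, lowest in 2 of the acidosis samples. Of the 19978 rows, 19976 were protein-coding genes, so totals and shares of counts take in almost only coding genes. CPM are counts relative to the library total, which was scaled by TMM, a method that sets the typical gene to no change. The TMM factors were 1.17 to 1.18 in control, 1.21 with SRPIN340 and 0.78 to 0.80 in acidosis. When each library was scaled by its total count alone (total-count scaling), all genes together had a median of -0.63 in acidosis on the log2 scale, in place of -0.05, so changes in acidosis are stated relative to the typical gene. In bulk RNA, fewer cells that express a gene and less of its RNA per cell cannot be told apart. All 6 markers of HEK-293 cells were detected in every sample, with a summed level of 1005 to 1080 CPM in control, 1024 to 1073 CPM with SRPIN340 and 2950 to 3006 CPM in acidosis. VIM carried most of that sum, at 842 to 892 CPM in control and 2675 to 2745 CPM in acidosis, while INA (25.6 to 31.9 and 17.3 to 18.5 CPM) and PAX2 (6.49 to 7.06 and 1.19 to 2.48 CPM) were lower in acidosis. The 8 markers of other cell types summed to 31.9 to 33.0 CPM in control, 29.3 to 39.4 CPM with SRPIN340 and 59.9 to 68.7 CPM in acidosis, mostly from COL1A1, with INS at 0 in all samples; their part in the results was not tested.

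Within each group the members covered a wide range of levels. Per kilobase of canonical transcript, HSP90AA1 was highest in control, at 670 ± 14.8 CPM (SD, n = 2), and ranked 63 of 14862 genes with a length. HSP90AB1 followed at 612 ± 4.91 CPM per kilobase, HSPD1 at 348 ± 22.0, HSPE1 at 222 ± 4.78 and HSPB1 at 92.5 ± 9.63 (SD, n = 2 for each). These 5 genes did not overlap each other between the control samples. HSF2, BAG3 and HSF1 came next at 19.0, 18.0 and 17.1 CPM per kilobase, and their samples overlapped. HSPB8 was at 7.73 CPM per kilobase and CRYAB at 0.0919, which ranked 14488.
In acidosis HSP90AA1 and HSP90AB1 still had the highest levels of the 10, at 1243 ± 75.8 and 1158 ± 48.1 CPM per kilobase (SD, n = 3), and their samples overlapped. HSPB1 stood at 316 ± 17.2 CPM per kilobase, between HSPD1 at 369 ± 13.9 and HSPE1 at 239 ± 15.9 (SD, n = 3 for each). HSF2 was at 54.1 CPM per kilobase. HSPB8 at 41.9, HSF1 at 41.8 and BAG3 at 37.8 followed, and the range of the HSF1 samples took in those of both HSPB8 and BAG3. CRYAB was lowest of the 10 at 11.9 CPM per kilobase.

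**Figure D1:**
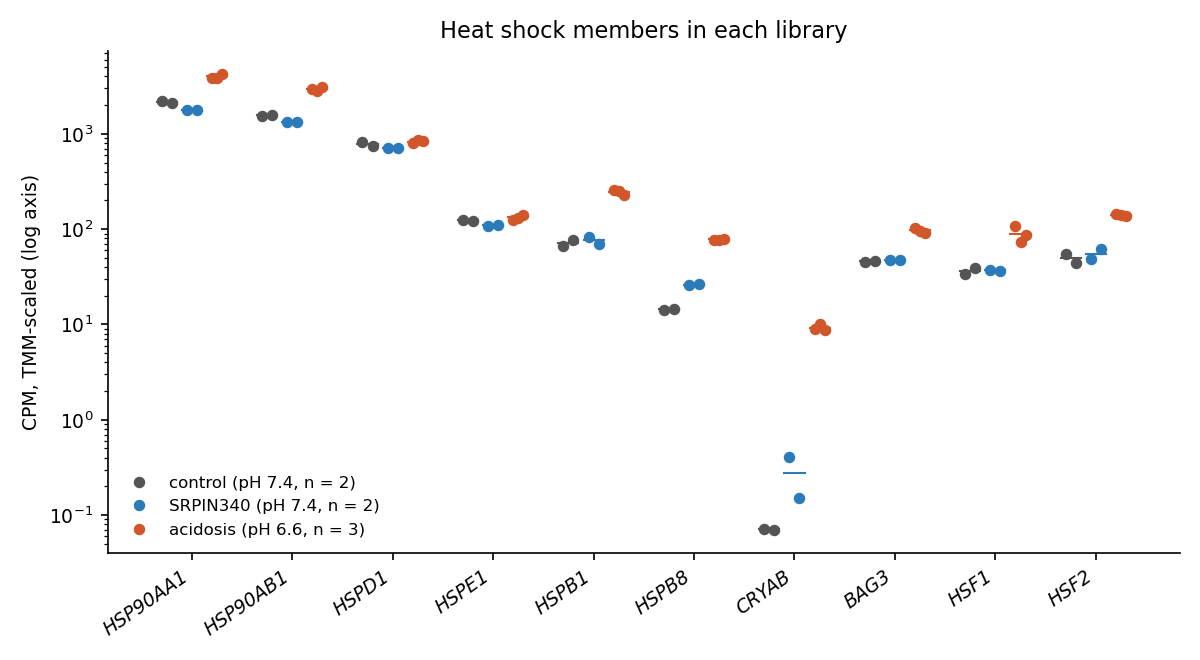
CPM with TMM-scaled totals on a log axis, with a point for each library and a bar at the group mean. The acidosis samples lie above the control samples for 8 members, and they overlap the control samples for HSPD1 and HSPE1.

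A gene is said here to have risen or fallen when its Benjamini-Hochberg adjusted p over all genes tested, by the quasi-likelihood test of edgeR, was under 0.05, and it is called when its absolute log2 fold change was also over 1. The members were chosen with earlier results of these data known, so the shares of all genes given beside their counts are a description. In acidosis 6 of the 10 members were called higher and 0 lower, against 14.4% of all genes tested that were called higher. At the adjusted p alone 8 rose, against 32.5% of all genes. In the same 8 genes all acidosis samples lay above all control samples, which was so for 37% of all genes. The median log2 fold change of the members was 1.19, and 0.61 under total-count scaling, where 3 members were called higher, against 5.48% of all genes. With SRPIN340, 0 members were called by edgeR or DESeq2, against 0.323% of all genes by edgeR, and 1 passed, against 2.3%.

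**Figure D2:**
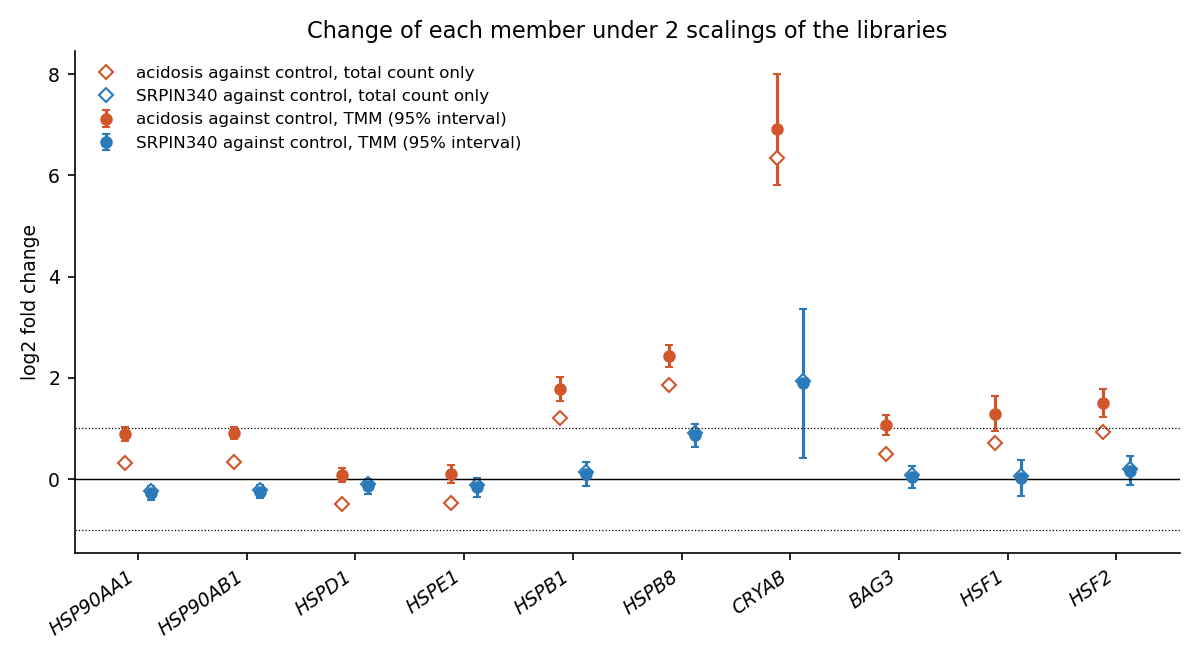
Log2 fold change of each member in acidosis and with SRPIN340, each against control. Filled points are edgeR values with TMM and their 95% intervals, open diamonds are values under total-count scaling, and dotted lines mark the fold limit of a call. Scaling by total count lowers each acidosis value and places HSPD1 and HSPE1 under 0.

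HSP90AA1 encodes the stress-inducible isoform of cytosolic HSP90 (ENSG00000080824.19, minus strand of chromosome 14 of GRCh38, 102080742 to 102139699). Its level was 2197 and 2130 CPM in control, 1768 and 1797 CPM with SRPIN340, and 3896, 3845 and 4292 CPM in acidosis. The groups did not overlap, with SRPIN340 lowest and acidosis highest. HSP90AA1 rose in acidosis by a log2 fold change of 0.89 (SE, the standard error, 0.0596, edgeR adjusted p = 9.46e-07), which is 1.85-fold and under the limit of a call. As a share of all counts in its library it went from 0.257% and 0.252% in control to between 0.307% and 0.336% in acidosis. With SRPIN340 the log2 fold change was -0.28 (adjusted p = 0.0567 in edgeR, 0.00568 in DESeq2), so that this difference passed in DESeq2 and not in edgeR.
HSP90AB1 encodes the isoform that most cells make without stress (ENSG00000096384.20, plus strand of chromosome 6, 44246166 to 44253888). It was at 1556 and 1574 CPM in control, 1316 and 1316 CPM with SRPIN340, and 2938, 2847 and 3090 CPM in acidosis. Again the 3 groups stood apart in the same order. The log2 fold change in acidosis was 0.92 (SE 0.0531, edgeR adjusted p = 3.66e-07), a 1.89-fold rise. Under total-count scaling the changes of HSP90AA1 and HSP90AB1 were 0.32 and 0.34, and both passed. With SRPIN340 it was -0.25 (adjusted p = 0.0564 in edgeR, 0.00368 in DESeq2). Set against SRPIN340, both HSP90 genes were called higher in acidosis, each with a log2 fold change of 1.17. Under total-count scaling both were at 0.55 and not called.
The ratio of HSP90AA1 to HSP90AB1 counts within a library does not depend on the scaling between libraries. It was 1.41 and 1.35 in control, 1.34 and 1.37 with SRPIN340, and 1.33, 1.35 and 1.39 in acidosis. The ranges of acidosis and control overlapped, with a difference of -0.03 on the log2 scale (two-sided exact permutation test, p = 0.4, where 2 against 3 samples cannot go below 0.2). GENCODE names 5 pseudogenes of HSP90AA1 and 6 of HSP90AB1. None is in the table, which holds almost only protein-coding genes. Reads that these copies share with the 2 genes make the counts of the genes uncertain.

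The sequences below show the heat shock element letters next to both HSP90 genes, the members with the most RNA. They come from RefSeq's promoter table of GRCh38.p14, whose windows run from 250 bases before a start site to 50 bases from it onward. Capitals mark matches to at least 2 units, searched on both strands as TTCNNGAA or GAANNTTC. A match of 3 units is one such pair with a further TTC or GAA after NN, so each holds overlapping matches of 2 units. The HSP90AA1 stretch is chr14:102087045-102087294 on the minus strand and ends just before the start of the canonical transcript. The HSP90AB1 stretch is chr6:44247693-44247865 on the plus strand, which lies in intron 1 of the canonical transcript and upstream of another start in the table, at 44247943.
HSP90AA1: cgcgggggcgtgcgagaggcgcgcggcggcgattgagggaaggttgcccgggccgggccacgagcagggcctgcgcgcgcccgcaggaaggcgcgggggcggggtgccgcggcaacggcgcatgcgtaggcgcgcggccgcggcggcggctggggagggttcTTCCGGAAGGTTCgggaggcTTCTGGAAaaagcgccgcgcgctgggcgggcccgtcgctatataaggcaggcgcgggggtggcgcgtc
HSP90AB1: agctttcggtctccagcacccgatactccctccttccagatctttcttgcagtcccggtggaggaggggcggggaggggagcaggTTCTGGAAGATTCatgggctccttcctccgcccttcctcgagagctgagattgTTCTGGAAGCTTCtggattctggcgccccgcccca
With the start site at 0, the HSP90AA1 match of 3 units spans -88 to -76 and a separate match of 2 units spans -68 to -61. HSP90AB1 has 2 matches of 3 units, from -165 to -153 and from -112 to -100. Over the whole table, 172 of 35116 windows (0.490%) held a match of 3 units and 4737 (13.5%) a match of 2 units. Windows were given for 8 of the 10 members, 13 windows in all. A match of 3 units was found in 3 of these members and a match of 2 units in 5. These counts are of members, some with several windows, while the shares are of windows. A match in letters is a description and does not show that a factor was bound in these cells.

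HSPD1 encodes HSP60, the chaperonin ring of mitochondria (ENSG00000144381.18, minus strand of chromosome 2, 197486584 to 197516737). Its level was 816 and 746 CPM in control, 706 and 709 CPM with SRPIN340, and 796, 858 and 832 CPM in acidosis. The acidosis samples overlapped the control samples, and the SRPIN340 samples were lowest. The log2 fold change in acidosis was 0.08 (95% interval -0.05 to 0.22, edgeR adjusted p = 0.244). The value depended on the scaling: as a share of all counts HSPD1 went from 0.0956% and 0.0882% in control to between 0.0627% and 0.0686% in acidosis, and under total-count scaling it passed as a fall, at -0.49 (edgeR adjusted p = 4.99e-05).
HSPE1 encodes HSP10, the lid of that chaperonin (ENSG00000115541.11, plus strand of chromosome 2, 197500140 to 197503449). It was at 126 and 122 CPM in control, 109 and 112 CPM with SRPIN340, and 125, 132 and 142 CPM in acidosis. Its groups were placed as those of HSPD1 were. The log2 fold change in acidosis was 0.10 (95% interval -0.07 to 0.28, edgeR adjusted p = 0.254), and under total-count scaling it was -0.47 (edgeR adjusted p = 0.000278). With SRPIN340 the log2 fold changes of HSPD1 and HSPE1 were -0.14 and -0.17 (edgeR adjusted p = 0.305 and 0.341).
Set against SRPIN340, both genes were higher in acidosis, with log2 fold changes of 0.23 and 0.27 (edgeR adjusted p = 0.00805 and 0.0108). Neither passed without SRPIN340 replicate 1 (edgeR adjusted p = 0.0563 and 0.0861) or without SRPIN340 replicate 2 (edgeR adjusted p = 0.0510 and 0.0540). Under total-count scaling the signs turned, to -0.39 and -0.35, and both passed as falls (edgeR adjusted p = 0.000245 and 0.00203).
HSPD1 and HSPE1 lie head to head, with canonical start sites 539 bases apart on opposite strands. The ratio of their counts was 6.50 and 6.12 in control, 6.49 and 6.35 with SRPIN340, and 6.38, 6.49 and 5.84 in acidosis. The groups overlapped, and the log2 ratio differed by -0.02 between acidosis and control (two-sided exact permutation test, p = 0.8). HSPE1-MOB4, a readthrough gene that shares the HSPE1 strand and exons, had 34 to 340 counts and fell in acidosis by 1.74 in log2 (edgeR adjusted p = 0.000244), and MOB4, at its far end, fell by 0.83 (edgeR adjusted p = 0.00269). Estimated counts of genes that share exons are uncertain, as are those of HSPD1 and HSPE1 for another reason. GENCODE names 18 and 26 pseudogenes of them, with none in the table of almost only protein-coding genes.
The start region between HSPD1 and HSPE1 held a run of 18 bases with the longest element among the windows of the members, so its site is shown. It is part of chr2:197500061-197500090, printed on the minus strand, with the run in capitals.
HSPD1: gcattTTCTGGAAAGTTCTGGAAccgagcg
The run spans 197500068 to 197500085 and has 2 overlapping matches of 3 units. It lies 228 bases from the HSPD1 start and 294 bases from the HSPE1 start, outside the HSPE1 window. It is upstream of the canonical HSPD1 transcript and inside an exon of other annotated HSPD1 transcripts. Matches of 3 units were thus found beside HSP90AA1 and HSP90AB1, which rose in acidosis, and beside HSPD1, which did not pass.

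**Figure D3:**
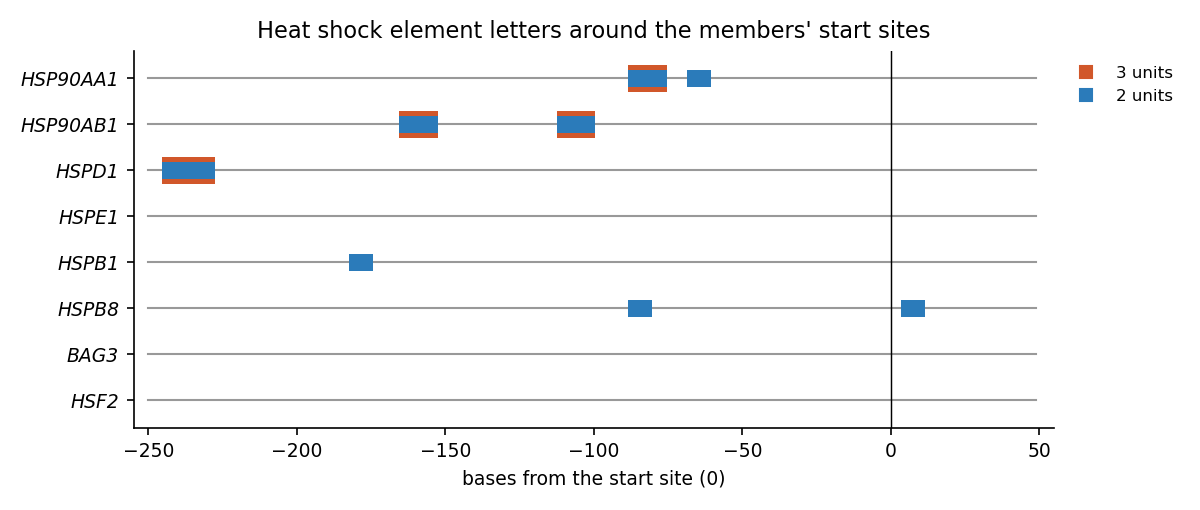
Matches to heat shock element letters in the RefSeq windows of the 8 members that had one, by distance in bases from the start site at 0. Tall boxes are matches of 3 units and short boxes matches of 2 units; where a gene has several windows, the line shows the window with matches or, with none, any of them. HSPE1, BAG3 and HSF2 have no match.

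HSPB1 encodes HSP27, the most widely expressed small heat shock protein (ENSG00000106211.10, plus strand of chromosome 7, 76302673 to 76304295). It was at 66.6 and 77.2 CPM in control, 83.6 and 70.5 CPM with SRPIN340, and 256, 250.5 and 231 CPM in acidosis. Acidosis stood above both other groups, which overlapped. HSPB1 rose in acidosis by a log2 fold change of 1.77 (SE 0.104, edgeR adjusted p = 3.98e-07), or 3.42-fold. It stayed called under total-count scaling, at 1.20. With SRPIN340 its log2 fold change was 0.10 (95% interval -0.14 to 0.34, edgeR adjusted p = 0.696).

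HSPB8 encodes HSP22, which pairs with BAG3 to send misfolded proteins to autophagy (ENSG00000152137.8, plus strand of chromosome 12, 119171555 to 119224855). Its level was 14.1 and 14.6 CPM in control, 25.8 and 26.5 CPM with SRPIN340, and 76.7, 77.9 and 79.4 CPM in acidosis. The 3 groups stood apart, with SRPIN340 between control and acidosis. HSPB8 rose in acidosis by a log2 fold change of 2.44 (SE 0.0958, edgeR adjusted p = 3.96e-08), or 5.42-fold, and by 1.86 under total-count scaling.
HSPB8 was also the only member that passed in edgeR with SRPIN340, where it rose by a log2 fold change of 0.86 (SE 0.0987, edgeR adjusted p = 0.00490, 1.82-fold). In DESeq2 the same change was 0.86 (DESeq2 adjusted p = 2.37e-09). It did not pass in edgeR without SRPIN340 replicate 1 (log2 fold change 0.88, adjusted p = 0.0622) or without SRPIN340 replicate 2 (0.85, adjusted p = 0.0621), where the group rests on 1 sample. Set against SRPIN340, HSPB8 was called higher in acidosis, at 1.58 (edgeR adjusted p = 3.75e-07), or 2.98-fold.
The sequences before the starts of HSPB1 and HSPB8, the called small heat shock genes with a window, are shown with their matches of 2 units in capitals. They are chr7:76302423-76302672 and chr12:119178681-119178930, both on the plus strand of GRCh38.p14 from RefSeq.
HSPB1: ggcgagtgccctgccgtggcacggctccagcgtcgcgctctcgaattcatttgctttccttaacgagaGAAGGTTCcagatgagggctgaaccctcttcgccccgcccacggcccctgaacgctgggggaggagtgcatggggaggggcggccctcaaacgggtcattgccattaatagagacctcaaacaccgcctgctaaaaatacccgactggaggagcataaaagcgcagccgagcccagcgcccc
HSPB8: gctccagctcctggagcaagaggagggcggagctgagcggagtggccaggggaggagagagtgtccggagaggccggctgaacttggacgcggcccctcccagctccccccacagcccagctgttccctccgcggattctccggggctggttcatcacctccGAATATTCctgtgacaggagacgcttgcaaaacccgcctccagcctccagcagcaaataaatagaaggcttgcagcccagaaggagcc
The HSPB1 match spans -182 to -175. HSPB8 has a match from -88 to -81 and another, past the stretch shown, from 4 to 11. Neither window holds a match of 3 units, and matches of 2 units occur in 13.5% of all windows.

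CRYAB encodes alpha-B-crystallin, a small heat shock protein of lens and muscle that stress induces in other cells (ENSG00000109846.9, minus strand of chromosome 11, 111908564 to 111923722). It had 2 and 2 counts in control, 11 and 4 counts with SRPIN340, and 152, 109 and 101 counts in acidosis, which is 9.03, 10.0 and 8.68 CPM. Both control samples were under the counting floor of 3 counts, while each acidosis sample had at least 101 counts. In pooled CPM the ratio of acidosis to control was 129 (exact 95% interval 50.1 to 477, counting error only). The fitted log2 fold change of 6.91 (edgeR adjusted p = 1.41e-06) depends on the small count that the fit adds.
With SRPIN340 the pooled ratio to control was 3.94 (exact 95% interval 1.26 to 16.3, counting error only), and the difference did not pass (fitted log2 fold change 1.89, edgeR adjusted p = 0.173). The fitted value was 1.03 without SRPIN340 replicate 1 and 2.41 without SRPIN340 replicate 2. The 2 SRPIN340 samples differed from each other, at 0.405 and 0.152 CPM. Set against SRPIN340, CRYAB was called higher in acidosis, at a log2 fold change of 5.02 (edgeR adjusted p = 3.65e-06). It was at 5.86 without SRPIN340 replicate 1 and at 4.48 without SRPIN340 replicate 2, and called in both.
On the opposite strand, with its canonical start 964 bases away, lies HSPB2, another small heat shock gene, which had 0 to 2 counts in any sample and was below the expression filter. HSPB2-C11orf52, a readthrough gene from that start, had 0 to 6 counts. C11orf52, whose span overlaps CRYAB on the opposite strand, had 36 and 44 counts in control, 73 and 44 with SRPIN340, and 0 in each acidosis sample, where CRYAB was highest. The sources used here do not say whether strand was used in counting, and the values of these overlapping genes are uncertain.

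BAG3 encodes a co-chaperone that joins HSP70 to small heat shock proteins (ENSG00000151929.10, plus strand of chromosome 10, 119651380 to 119677819). It was at 45.8 and 46.2 CPM in control, 47.0 and 47.8 CPM with SRPIN340, and 104, 95.5 and 91.5 CPM in acidosis. Acidosis was above both other groups, and the SRPIN340 samples lay just above control. BAG3 rose in acidosis by a log2 fold change of 1.08 (SE 0.0874, edgeR adjusted p = 3.44e-06), or 2.11-fold. Under total-count scaling its rise of 0.50 was under the limit of a call. With SRPIN340 the log2 fold change was 0.04 (95% interval -0.17 to 0.25, edgeR adjusted p = 0.867).
The number of BAG3 counts for each HSPB8 count was 3.24 and 3.16 in control, 1.82 and 1.80 with SRPIN340, and 1.35, 1.23 and 1.15 in acidosis. The 3 groups did not overlap, and acidosis was lowest. Between acidosis and control the log2 ratio differed by -1.37, a 2.58-fold shift, with a two-sided exact permutation p = 0.2, the smallest that 2 against 3 samples allow. Between SRPIN340 and control it differed by -0.82, which was not tested.

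**Figure D4:**
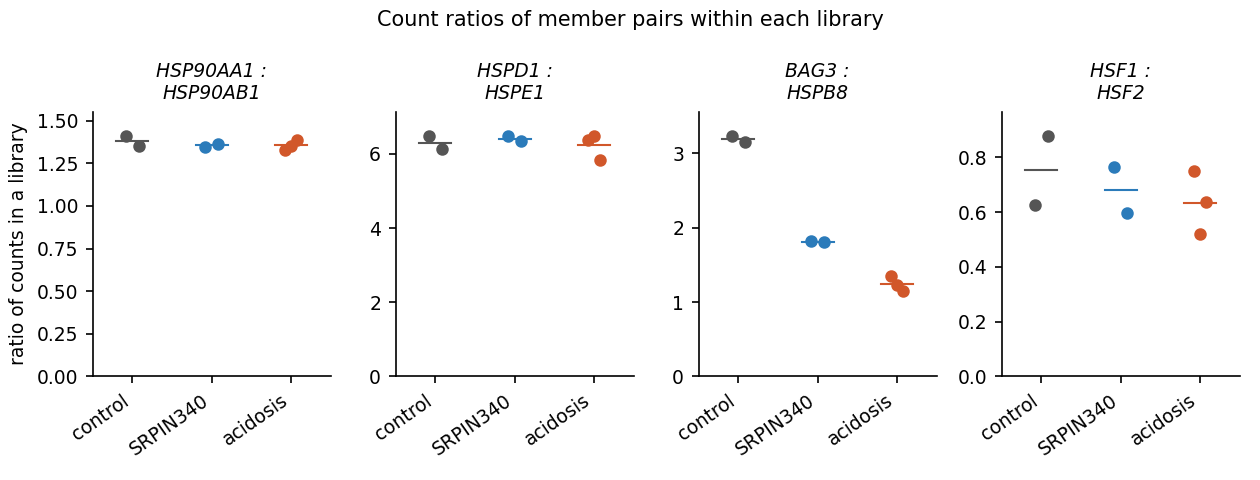
Ratio of counts of 4 member pairs within each library, on axes from 0, with a point for each library and a bar at the group mean. The BAG3 to HSPB8 ratio is 3.24 and 3.16 in control and at most 1.35 in acidosis, and the other ratios overlap between control and acidosis.

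HSF1 encodes the main transcription factor of the heat shock response (ENSG00000185122.11, plus strand of chromosome 8, 144291591 to 144314720). It was at 34.1 and 38.8 CPM in control, 37.4 and 36.7 CPM with SRPIN340, and 108, 73.3 and 87.0 CPM in acidosis. Acidosis lay above the other groups, and its samples spread more than for any other member, with a coefficient of variation of 19.4% against at most 7.43% for the rest. HSF1 rose in acidosis by a log2 fold change of 1.30 (SE 0.152, edgeR adjusted p = 4.27e-05), or 2.45-fold. Under total-count scaling the change was 0.72 (edgeR adjusted p = 0.00165), under the limit of a call. With SRPIN340 it was 0.02 (95% interval -0.34 to 0.39, edgeR adjusted p = 0.965).
HSF2, a related factor that can form mixed trimers with HSF1, lies on the plus strand of chromosome 6 (ENSG00000025156.13, 122399551 to 122433119). It was at 54.4 and 44.2 CPM in control, 49.0 and 61.6 CPM with SRPIN340, and 144, 141 and 137 CPM in acidosis. The acidosis samples were close together and above the other groups, which overlapped. HSF2 rose in acidosis by a log2 fold change of 1.51 (SE 0.123, edgeR adjusted p = 3.44e-06), or 2.85-fold, and by 0.94 under total-count scaling. With SRPIN340 its log2 fold change was 0.17 (95% interval -0.12 to 0.46, edgeR adjusted p = 0.568).
The ratio of HSF1 to HSF2 counts was 0.627 and 0.879 in control, 0.764 and 0.596 with SRPIN340, and 0.749, 0.520 and 0.636 in acidosis. The groups overlapped, and the log2 ratio differed by -0.24 between acidosis and control (two-sided exact permutation test, p = 0.6). RNA of these factors does not measure their activity, which for HSF1 is set by trimer formation and phosphorylation.

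Acidosis and SRPIN340 were also tested against each other, a comparison that holds no control sample. All 10 members were higher in acidosis at the adjusted p of edgeR, against 32.8% of all genes, and 8 were called higher, against 14.9%. The 2 members under the fold limit were HSPD1 and HSPE1. HSPB1 had a log2 fold change of 1.67, HSF2 of 1.35, HSF1 of 1.27 and BAG3 of 1.03. BAG3 was under the limit without acidosis replicate 1, at 0.98. Under total-count scaling, HSPB1 at 1.06 and CRYAB at 4.41 were called, against 5.21% of all genes called higher. HSPD1 at -0.39 and HSPE1 at -0.35 passed there as lower in acidosis.
With SRPIN340 against control, 7 of the 10 members had samples that did not overlap, against 54.1% of all genes. HSPB8, CRYAB and BAG3 lay above control in these samples, and both HSP90 genes, HSPD1 and HSPE1 lay below it. Of these only HSPB8 passed the test in edgeR.

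For each member that rose in acidosis, the 2 genes of nearest profile were found among all genes tested, by the root mean square difference in log2 CPM centred on the control mean over the 7 libraries. HSP90AA1 was nearest to HSP90AB1, with a difference of 0.0351, and then to HOXB9. HSP90AB1 was nearest to HOXB9 (0.0275) and AGBL5, HSPB1 to ECSIT (0.0779) and FTL, and HSPB8 to HRK (0.186) and N4BP3. CRYAB was nearest to GPR3 (0.325) and KRT17, BAG3 to GNL1 (0.0525) and MEAF6, HSF1 to RAD54L (0.0380) and DHPS, and HSF2 to RNF139 (0.0857). HSP90AA1 was the only member with another member among its 2 nearest genes. This likeness is a description, and a scaling factor shared by all genes of a library cancels from it.

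Other genes of the same pathways were read from 7 lists with 102 genes, of which 93 were tested. The lists too were chosen with earlier results known, so the shares of all genes beside their counts are a description. In acidosis 25 of the 93 were called higher and 7 lower, against 14.4% and 19.1% of all genes, and 51 rose and 21 fell at the adjusted p of edgeR, against 32.5% and 34.2%. Under total-count scaling, 13 were called higher and 20 lower, against 5.48% and 35% of all genes. The medians of the TRiC chaperonin with prefoldin, of the mitochondrial chaperones and of the HSF regulators turned from positive to negative under that scale.
Of 20 HSP90 paralogs and co-chaperones, 8 rose and 6 fell, with a median log2 fold change of -0.01 beside -0.05 for all genes. Of all genes 32.5% rose and 34.2% fell, which also stands beside the counts of each list below. HSP90B1, the HSP90 of the endoplasmic reticulum, rose by 1.93 on the log2 scale, from 1020 ± 77.3 CPM in control (SD, n = 2) to 3877 ± 127 CPM in acidosis (SD, n = 3; edgeR adjusted p = 1.93e-08). FKBP5, a co-chaperone of steroid receptors, fell from 110.3 ± 10.3 to 36.8 ± 4.63 CPM, at -1.59 (edgeR adjusted p = 1.13e-06). The HSP90 genes of the cytosol, at 0.89 and 0.92, lay between these.
Of 9 listed genes of other small heat shock proteins and a partner, 8 were in the table and 2 were tested. HSPB6, at 1.76 ± 0.409 CPM in control and 0.718 ± 0.324 CPM in acidosis, and HSPBAP1, which binds HSPB1, both fell, at -1.27 (edgeR adjusted p = 0.0412) and -0.95 (edgeR adjusted p = 0.00856). HSPB1, HSPB8 and CRYAB had risen in the same samples.
The TRiC chaperonin is the counterpart of HSP60 in the cytosol, and prefoldin passes new proteins to it. Of 15 tested genes 10 rose and 3 fell, with a median of 0.43, and the prefoldin subunits PFDN2 and PFDN5 moved most, at 1.94 and 1.40 (edgeR adjusted p = 4.51e-08 and 5.83e-07). Of 14 mitochondrial chaperones and proteases 8 rose and 3 fell, with a median of 0.28. GRPEL2, an exchange factor of mitochondrial HSP70, rose by 1.91 (edgeR adjusted p = 3.43e-07), and AFG3L2, a protease of the inner membrane, fell by 0.86 (edgeR adjusted p = 3.86e-06).
In the BAG family with partners of BAG3, 8 of 13 rose and 0 fell, with a median of 0.98. The kinase gene LATS2 rose from 10.96 ± 1.11 CPM in control to 58.0 ± 3.81 CPM in acidosis (SD, n = 2 and 3), at 2.40 (edgeR adjusted p = 1.86e-07), and FLNA, which encodes the actin crosslinker filamin A, from 1384 ± 46.3 to 4542 ± 310.2 CPM, at 1.71 (edgeR adjusted p = 3.94e-08). In the HSF family with regulators of HSF1, 6 of 13 rose and 4 fell, with a median of 0.20. HSBP1, whose product binds HSF1 trimers, rose by 1.75 (edgeR adjusted p = 4.02e-08), and HSF2BP, whose product binds HSF2, fell from 2.18 ± 0.237 to 0.413 ± 0.0892 CPM, at -2.40 (edgeR adjusted p = 0.000425).
Of 16 tested genes that are further targets of HSF1, 11 rose and 3 fell, with a median of 1.08. The inducible HSP70 gene HSPA1A rose by 5.54, from 237 ± 10.4 CPM in control (SD, n = 2) to 11039 ± 504 CPM in acidosis (SD, n = 3; edgeR adjusted p = 5.14e-10), although it shares reads with its near-identical copy HSPA1B. HSPA6, another inducible HSP70 gene, rose from 0.374 ± 0.0320 to 17.4 ± 3.55 CPM, at 5.53 (edgeR adjusted p = 2.72e-07). With SRPIN340, 0 of the 93 genes were called, 1 rose and 4 fell, against 2.3% of all genes that passed.

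**Figure D5:**
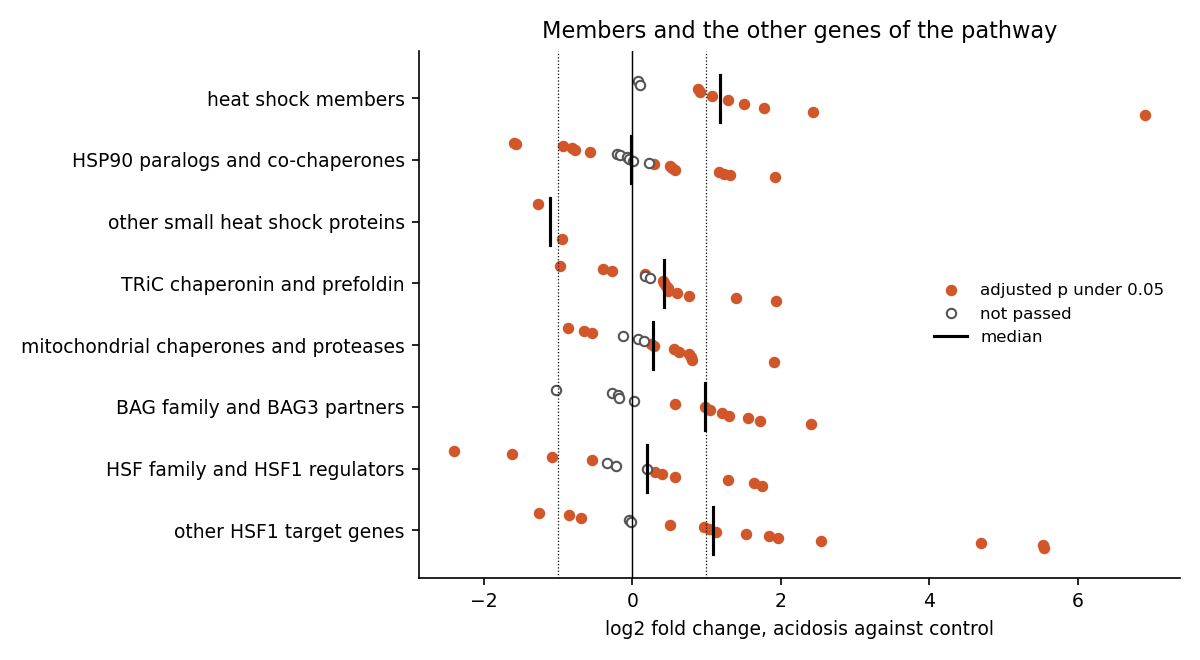
Log2 fold change in acidosis against control for the 10 members and for the tested genes of the 7 other lists, a point for each gene. Filled points have an adjusted p under 0.05 in edgeR, black bars are medians and dotted lines mark the fold limit of a call. The medians are 1.19 for the members, 1.08 for other HSF1 targets and -0.01 for HSP90 paralogs and co-chaperones.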

How the data were processed

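Per the study's methods, poly(A) RNA was captured, and the authors trimmed reads with Trimmomatic 0.39 and Trim Galore 0.6.6, quantified transcripts with Salmon 1.5.1 on Gencode GRCh38.p13 and summed them to genes with tximport. They deposited estimated counts per gene, not normalized between samples; the tximport option is not given in the sources used here. Of 19978 rows, 19977 matched GENCODE release 44 by identifier. Totals ran from 13615944 to 24110439.

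The estimated counts were rounded, and edgeR 4.0.16 (R 4.3.3) tested them by quasi-likelihood after TMM scaling and filterByExpr, with all 7 samples in a single fit and Benjamini-Hochberg adjustment over 14863 genes. DESeq2 1.42.0, the study's tool, was an alternative. Calls needed an adjusted p under 0.05 and a log2 fold change beyond 1 in size. Ratios of counts within libraries were compared by exact permutation tests, and the CRYAB ratio has an exact interval (scipy 1.17.1). On simulated counts of 14863 genes with 200 changed by 2 on the log2 scale, edgeR recovered 91.5% for acidosis and 85% for SRPIN340. False calls by edgeR numbered 5 and 4. The measured acidosis data had 2145 higher and 2840 lower calls against control, far more than were simulated. The simulation therefore could not test the scaling between libraries.

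The members and lists were chosen with earlier results of these data known. Named were all 10 members, the 2 tested genes of largest absolute change in each other list and any listed gene called with SRPIN340. Also named were the 2 nearest profiles of each member that passed in acidosis, and protein-coding genes that overlap HSPD1, HSPE1 or CRYAB. On the opposite strand, WDR20 overlaps HSP90AA1 by 197 bases, DGAT1 overlaps HSF1 by 137 bases, and BOP1 starts 166 bases from HSF1. In acidosis these neighbours did not pass (edgeR adjusted p = 0.397, 0.208 and 0.0901). A further nearest profile is not reported here. Replicate numbers were checked for pairing: same-numbered samples deviated with correlations from -0.11 to 0.06. In a group of 2 samples the deviations mirror each other, so this check cannot settle whether samples were paired. The main fit did not take the numbers as pairs. Alternatives were DESeq2, other scalings, filters and samples in the fit, a replicate block, no fold limit and each replicate left out. Splicing was not analysed here. Figures were drawn with matplotlib 3.10.9.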

Additional observations from a re-analysis of the deposited data

How the results depend on the processing

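Among the 10 members, 6 were called in acidosis under each setting except scaling by total count only, with 3 (against 5.48% of all genes called higher there), a filter at a mean of 10 CPM, with 4, and no fold limit, with 8. Under the filter CRYAB was not tested and BAG3 was at 0.99. Against SRPIN340, acidosis had 8 members called, 2 with scaling by total count only (against 5.21% of all genes), 6 with the filter, 10 with no fold limit and 7 without acidosis replicate 1. With SRPIN340 against control, 0 members were called under each setting, and 1 passed with no fold limit. Of the 93 listed genes tested, 32 were called in acidosis, and 72 with no fold limit (51 higher, 21 lower). Leaving out each replicate in turn, the member counts were 6 in acidosis, 0 with SRPIN340 and 7 to 8 between the treatments, and the list count was 31 to 35. A group left with 1 sample was assumed to vary like the others.

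In acidosis HSPD1 turned to -0.49 and HSPE1 to -0.47 with scaling by total count only, and HSPD1 to -0.0017 with the filter at a mean of 10 CPM. Against SRPIN340 they turned to -0.39 and -0.35 with scaling by total count only. With SRPIN340, leaving out each replicate moved HSPB1 between -0.028 and 0.22, HSF1 between -0.067 and 0.12, and HSF2 between -0.0072 and 0.32. Each control and acidosis replicate was also left out of the differences in log2 ratio between acidosis and control. For HSP90AA1 to HSP90AB1 the difference lay between -0.060 and 0.0019, and for HSPD1 to HSPE1 between -0.060 and 0.029. For BAG3 to HSPB8 it lay between -1.43 and -1.31, and for HSF1 to HSF2 between -0.49 and 0.0019. The cause of these turns was not tested. HSPD1 and HSPE1 did not pass against SRPIN340 with the filter (edgeR adjusted p = 0.0863 and 0.0634). With SRPIN340 against control, HSP90AA1 and HSP90AB1 also passed with no filter (edgeR adjusted p = 0.0423 and 0.0472) and without acidosis replicate 2 (0.0452 and 0.0444), and HSP90AA1 with only the 2 groups compared (0.0388) and without acidosis replicate 3 (0.0485).

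With the replicate block the member counts stayed at 6, 0 and 8, and HSPE1 in acidosis against SRPIN340 no longer passed (0.22 on the log2 scale, edgeR adjusted p = 0.0617); the block changed no other call of a member. Over all genes the block left 27 SRPIN340 calls in place of 48, leaving out a replicate left 11 to 66. CRYAB was under the counting floor in both control samples, so its level there is uncertain. These libraries had the highest totals of the 7, at 23695477 and 24110439 counts.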
